A study of Mus musculus with 14 samples.

Results

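Lung tumor nodules that had acquired resistance to mobocertinib given alone were compared with nodules treated with mobocertinib and T-DM1 together. The comparison took the 3 resistant and the 3 combination libraries, of 14 in the series, by their treatment labels. It was read over autosomal genes: 16987 of the 17933 genes that passed a filter on low counts. All nodules came from C57BL/6 mice of the genotype HER2 Exon20YVMA, so the groups share the tumor allele. The labels describe the drug treatment as long term. The remaining libraries (3 on mobocertinib, 3 on T-DM1 and 2 on vehicle) entered the fit so that all groups share 1 estimate of the spread. The labels give no dose, no duration, no age or sex, no promoter for the allele, and not what the resistant nodules were receiving when they were taken. They do not say that nodules of a group came from separate mice, and the spread behind the p-values may be partly technical.

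HER2 (Erbb2) is a receptor tyrosine kinase that signals in pairs with its relatives, HER3 above all, through the ERK and PI3K pathways, and insertions in its exon 20 keep the kinase active. Mobocertinib (TAK-788) is a small-molecule kinase inhibitor made for exon 20 insertion mutants of EGFR. T-DM1 (trastuzumab emtansine) is an antibody against HER2 that carries a microtubule poison. The conjugate is taken up with the receptor and broken down in the lysosome, from which the poison must escape to reach tubulin.

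Sequencing depth was close between the groups, at 22355276, 22783542 and 19344015 counts in the resistant libraries and 22652221, 23636046 and 24043238 in the combination libraries. The resistant nodules were less alike: Pearson correlations of log2 CPM across 16987 autosomal genes ran from 0.909 to 0.917 among resistant nodules, from 0.956 to 0.964 among combination nodules and from 0.910 to 0.949 between the groups. Resistant nodule 2 had 6.41% of its counts on mitochondrial genes, and the other 5 had 0.542% to 1.32%. The lung label was checked on Nkx2-1, the master transcription factor of lung epithelium, which had 113, 180 and 206 CPM in resistant nodules and 194, 156 and 141 CPM in combination nodules. CPM are counts scaled to the TMM-adjusted library size throughout, unless stated. Xist, the RNA of the inactive X chromosome, had 217, 523 and 63.8 CPM of the library total in resistant libraries and 0, 0.0846 and 0.541 CPM in combination libraries. The sum of 4 Y-linked genes (Ddx3y, Eif2s3y, Kdm5d and Uty) was 0.850, 0.483 and 0.103 CPM in resistant libraries and 77.3, 80.9 and 79.9 CPM in combination libraries. The sex of the mice and the treatment therefore cannot be told apart within these 6 libraries. An edgeR fit with a term for sex had 331 autosomal genes at an unadjusted p under 0.05. That term rests on the T-DM1 libraries, 2 of which mixed Xist with Y-linked counts, so it is not a clean adjustment for sex.

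No autosomal gene passed an adjusted p of 0.05 in edgeR's quasi-likelihood test: 0 of 16987, or 0%, with a smallest adjusted p of 0.399. At an unadjusted p under 0.05 stood 1394 autosomal genes, or 8.21%, of which 882 (5.19%) were higher and 512 (3.01%) lower in resistant nodules. DESeq2 called 47, of which 29 were higher and 18 lower, and limma-voom called 0. With the 6 libraries alone edgeR called 1, the processed pseudogene Gm15459. All 3 resistant nodules stood above all 3 combination nodules for 1016 genes (5.98%) and below them for 1120 (6.59%). The median log2 fold change was 0.06 and the median standard error 0.42. Resistant nodule 3 weighed most on the unadjusted count: without it 2972 genes had a p under 0.05, against 780 without resistant nodule 2, 714 without combination nodule 2 and 841 without combination nodule 3. Values below are therefore descriptions of these 6 nodules, and all adjusted p-values of the autosomal genes named are 0.399 or higher in edgeR.

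The 10 genes that led among those higher in resistant nodules were Map1b, Dnajc21, Stc1, Cnn3, Naip6, Pea15a, Npr3, Creb3l1, Rgl1 and Jade1, ranked by unadjusted p among expressed protein-coding genes with no overlap between the groups. Map1b, a microtubule-binding protein best known from growing axons, had 53.7, 47.3 and 20.6 CPM in resistant nodules and 8.16, 8.51 and 10.5 CPM in combination nodules. Its log2 fold change was 2.16 ± 0.43 (SE). Resistant nodule 3 was the lowest of its group and still above every combination nodule. Pea15a, a small protein that holds ERK in the cytoplasm, had 205, 341 and 556 CPM in resistant nodules and 131, 141 and 125 CPM in combination nodules, a log2 fold change of 1.47 ± 0.33. Creb3l1, a membrane-bound transcription factor of the secretory pathway, had 23.5, 61.3 and 54.6 CPM in resistant nodules and 14.98, 7.60 and 6.93 CPM in combination nodules. Its log2 fold change was 2.24 ± 0.53. The combination nodules were tight for Pea15a, while combination nodule 1 stood above its group for Creb3l1.

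Npr3, the clearance receptor for natriuretic peptides, had 58.5, 112 and 17.8 CPM in resistant nodules and 6.94, 8.98 and 15.5 CPM in combination nodules. Resistant nodule 3 lay just above combination nodule 3, and the log2 fold change was 2.58 ± 0.61. Stc1, a secreted glycoprotein, had 6.04, 13.6 and 5.40 CPM in resistant nodules and 1.95, 2.40 and 1.66 CPM in combination nodules. The remaining members of this set had smaller steps or a caveat of counting. Log2 fold changes were 1.22 for the co-chaperone Dnajc21, 1.08 for the Ral exchange factor Rgl1, 0.83 for Jade1, a subunit of histone acetyltransferase complexes, and 1.26 for the actin-binding protein Cnn3. Of Cnn3's exon bases, 17.7% are shared with another gene, and whether reads were counted by strand is unknown here. Naip6, an inflammasome receptor of bacterial proteins, had a log2 fold change of 2.74 ± 0.61 but belongs to a family of near-identical neighbours, so its counts are uncertain.

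The 10 that led among the lower genes included Per3, Dbp, Krt14, Serpinb2, Cybrd1, Tef, Ifit1, Abca1 and Krt17. They held 3 clock genes, 2 basal keratins and an interferon-induced gene, whose groups are described in turn. Cybrd1, a membrane ferric reductase, had 16.2, 6.64 and 11.7 CPM in resistant nodules and 43.8, 54.7 and 46.9 CPM in combination nodules, a log2 fold change of -2.07 ± 0.46. Abca1, which exports cholesterol to lipoproteins, had 95.2, 88.6 and 110 CPM in resistant nodules and 179, 190 and 213 CPM in combination nodules. Both genes separated the groups with a wide gap, and Abca1 with a log2 fold change of -0.99 ± 0.25 did so at a modest size. Serpinb2, an inhibitor of plasminogen activators, had 2.15, 2.32 and 1.70 CPM in resistant nodules and 28.1, 7.60 and 80.3 CPM in combination nodules. Combination nodule 2 was far below the others of its group, and 12.4% of the gene's exon bases are shared with another gene. Of the 20 leading genes, DESeq2 called 19, and Abca1 was the exception. The genes were chosen by their edgeR p in the same counts, so this is not separate support.

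**Figure D1:**
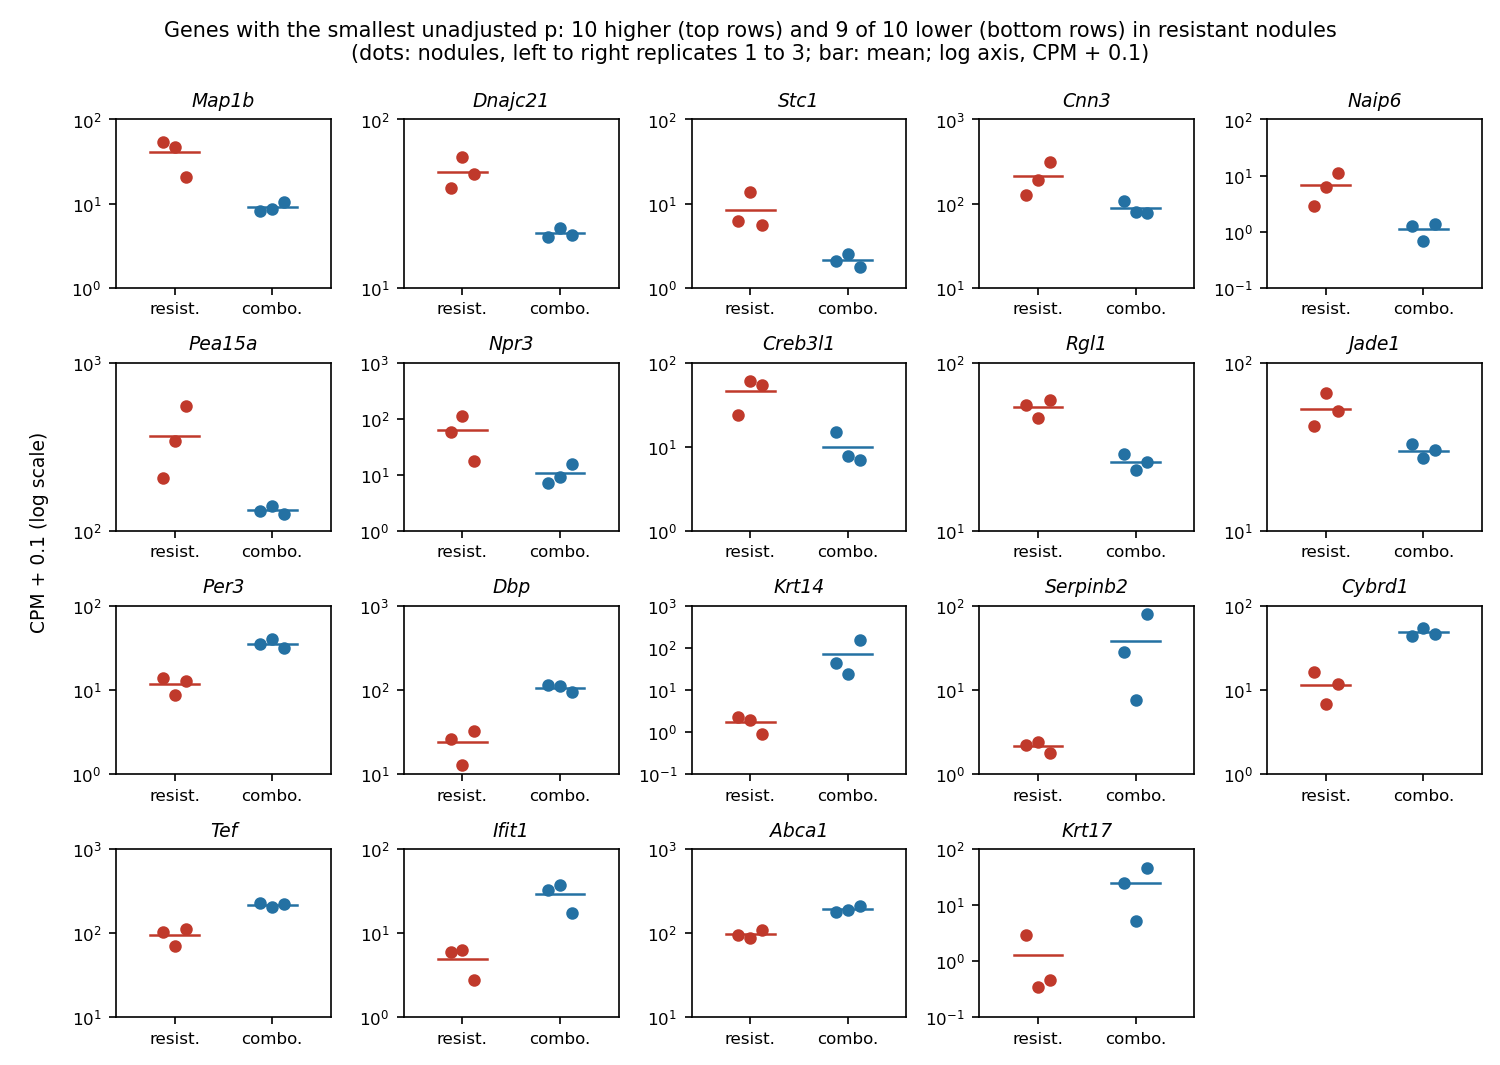
CPM + 0.1 on a log axis of the 10 genes with the smallest unadjusted p among those higher (top rows) and 9 of the 10 among those lower (bottom rows) in resistant nodules; each dot is a nodule, resistant left and combination right, and the bar is the mean of 3. The groups do not overlap in any panel, by the way the genes were chosen, and no gene passed an adjusted p of 0.05 in edgeR.

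Of 21 genes of the circadian clock, 11 separated the groups, 3 of them higher and 8 lower in resistant nodules, and the other 10 overlapped. The clock is a feedback loop in which ARNTL (BMAL1) with CLOCK or NPAS2 binds E-box sequences and drives the Per and Cry genes, whose proteins block it, as well as output factors such as DBP and TEF, which bind D-box sequences. In resistant nodules the 3 activators Arntl, Clock and Npas2 were higher in every nodule, and 8 genes were lower in every nodule, among them Per2, Per3, Cry1, Cry2, Dbp, Tef and Ciart. Over all autosomal genes 12.6% had no overlap between the groups. The list was drawn up after values were seen, so the count is a description. Their median log2 fold change was -0.17, beside 0.06 over all autosomal genes. Without resistant nodule 2, 6 rather than 3 were higher in every nodule left, where 8.55% of all autosomal genes were, and the list median ran from -0.28 to -0.052 when 1 nodule was left out. The labels do not give the hour at which nodules were taken.

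Per3, a repressor of the loop (chr4:151003652-151044665, minus strand, mm10), had 13.9, 8.63 and 12.6 CPM in resistant nodules and 35.0, 40.2 and 31.6 CPM in combination nodules. Its log2 fold change of -1.61 ± 0.30 had the smallest adjusted p of all autosomal genes, 0.399 in edgeR. All 3 resistant nodules lay well below the lowest combination nodule. Dbp, the albumin D-box binding factor, had 26.0, 12.6 and 32.8 CPM in resistant nodules and 113, 111 and 94.6 CPM in combination nodules, a log2 fold change of -2.16 ± 0.46; 18.0% of its exon bases are shared with another gene. Tef, its close relative, had 103, 70.1 and 111 CPM in resistant nodules and 231, 205 and 221 CPM in combination nodules, a log2 fold change of -1.20 ± 0.28. For both genes resistant nodule 2 was the lowest of the 6.

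Arntl, the obligate partner of CLOCK, had 19.3, 19.1 and 9.42 CPM in resistant nodules and 4.83, 5.04 and 2.76 CPM in combination nodules, a log2 fold change of 1.92 ± 0.56. Clock had 40.4, 88.6 and 40.6 CPM in resistant nodules and 29.1, 23.9 and 28.5 CPM in combination nodules, and Npas2 had 8.69, 9.34 and 8.18 CPM in resistant nodules and 6.17, 2.28 and 2.06 CPM in combination nodules. Resistant nodule 2 stood out for Clock, and combination nodule 1 for Npas2. Cry1, a repressor, had 12.1, 10.2 and 7.36 CPM in resistant nodules and 16.8, 22.8 and 19.9 CPM in combination nodules, a log2 fold change of -1.01 ± 0.34. Ciart, a repressor named for its circadian rhythm, was near the floor, with 1.56, 2.70 and 1.80 CPM in resistant nodules and 3.33, 3.31 and 7.26 CPM in combination nodules. The separation was narrow for Cry2, at 34.1 to 37.3 CPM in resistant nodules and 37.7 to 46.9 CPM in combination nodules. Per1, another repressor of the same family and one of the 2 most abundant members with Tef, had 127, 107 and 127 CPM in resistant nodules and 85.5, 74.9 and 129 CPM in combination nodules, and its groups overlapped.

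**Figure D2:**
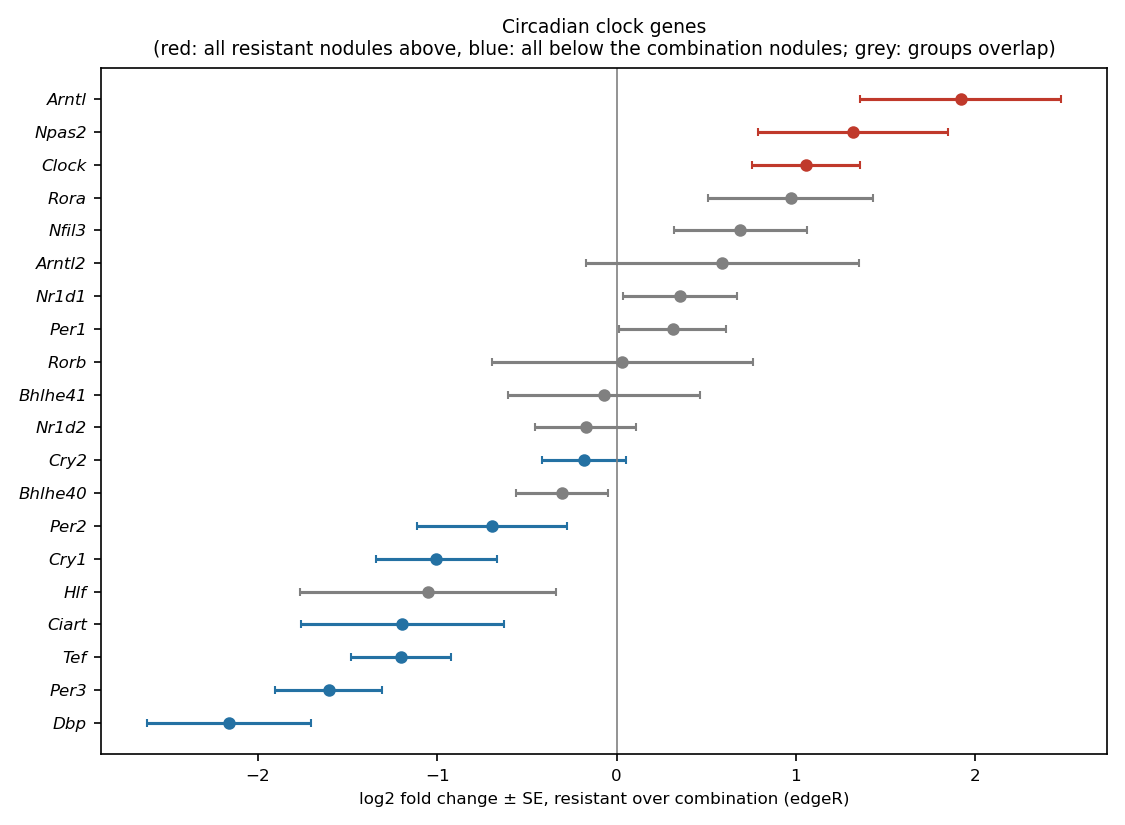
Log2 fold change, resistant over combination, with its standard error from edgeR (14 libraries), of 20 of the 21 circadian clock genes. Arntl, Clock and Npas2 stand at the top above 0, and Dbp at -2.16 and Per3 at -1.61 lie lowest; red and blue mark genes whose 3 resistant nodules were all above or all below the 3 combination nodules.

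The promoters of 4 clock genes that were lower in resistant nodules are shown because they hold a sequence that the clock factors bind. Dbp and Cry2, also lower, had neither of the motifs below in this window, and Per1, whose groups overlapped, had both. Each run is the 250 bases before the RefSeq transcription start (GRCm38.p6), with the named motif in capitals. In Per3 (chr4:151044666-151044915, minus strand) the capitals mark the D-box TTATGNAA, found at 2 places; in Tef (chr15:81802423-81802672, plus strand), Ciart (chr3:95882229-95882478, minus strand) and Cry1 (chr10:85185055-85185304, minus strand) they mark the E-box CACGTG.
Per3: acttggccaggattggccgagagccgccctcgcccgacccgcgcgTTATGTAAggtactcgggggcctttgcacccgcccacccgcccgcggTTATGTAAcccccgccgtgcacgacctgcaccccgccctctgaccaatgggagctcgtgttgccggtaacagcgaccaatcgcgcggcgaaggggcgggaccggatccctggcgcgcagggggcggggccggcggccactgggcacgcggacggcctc
Tef: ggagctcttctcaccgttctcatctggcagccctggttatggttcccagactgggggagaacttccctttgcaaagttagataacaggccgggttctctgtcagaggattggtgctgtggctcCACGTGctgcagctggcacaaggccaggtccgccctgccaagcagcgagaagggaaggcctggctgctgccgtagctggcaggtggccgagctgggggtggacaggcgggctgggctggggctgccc
Ciart: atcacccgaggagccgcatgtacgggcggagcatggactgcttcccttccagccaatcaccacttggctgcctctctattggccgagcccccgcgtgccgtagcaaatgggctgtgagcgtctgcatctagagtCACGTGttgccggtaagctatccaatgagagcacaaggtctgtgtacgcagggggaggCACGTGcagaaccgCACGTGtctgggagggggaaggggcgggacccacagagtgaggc
Cry1: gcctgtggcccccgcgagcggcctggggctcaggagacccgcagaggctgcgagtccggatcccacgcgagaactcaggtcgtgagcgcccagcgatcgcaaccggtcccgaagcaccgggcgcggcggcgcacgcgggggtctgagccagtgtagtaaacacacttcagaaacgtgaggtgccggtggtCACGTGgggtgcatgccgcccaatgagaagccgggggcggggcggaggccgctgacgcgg
The E-box was found in 5 of the 18 autosomal clock genes with a promoter entry, or 27.8%, and in 6.88% of all 25748 autosomal genes with one. The D-box was found in 2 of the 18, or 11.1%, and in 3.71% of all. Both strands were searched, the letters of the 2 motifs cannot overlap, and a match is a stretch of letters and not a measured binding site.

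Keratins of the squamous and basal lineage were far lower in resistant nodules. Krt14, an intermediate filament protein of basal cells (chr11:100203162-100207548, minus strand), had 2.18, 1.87 and 0.823 CPM in resistant nodules and 43.0, 23.9 and 151 CPM in combination nodules. Its log2 fold change was -5.47 ± 1.16. Krt5, its partner in the basal filament, had 11.2, 1.25 and 1.24 CPM in resistant nodules and 83.7, 52.4 and 80.5 CPM in combination nodules, a log2 fold change of -3.97 ± 1.08. All combination nodules stood above all resistant ones for both, and resistant nodule 1 was the highest of its group for Krt5.

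Of the 13 squamous and basal genes tested, 6 were lower in every resistant nodule (Krt5, Krt14, Krt6a, Krt17, Krt13 and Ngfr), beside 6.59% of all autosomal genes. At an unadjusted p under 0.05 in edgeR, 8 were lower, beside 3.01% of all. The median log2 fold change of the list was -3.97; without combination nodule 3 it was -2.55, and without combination nodule 2 the separated genes numbered 10, where 9% of all autosomal genes were lower. Krt17, a keratin of activated epithelium, had 2.91, 0.249 and 0.360 CPM in resistant nodules and 25.2, 5.20 and 45.6 CPM in combination nodules. Krt6a, of like use, had 2.22, 0.249 and 1.80 CPM in resistant nodules and 21.4, 8.74 and 37.3 CPM in combination nodules; 24.8% of its exon bases are shared with another gene. Combination nodule 2 was the lowest of its group for Krt14, Krt17 and Krt6a. Sox2, a transcription factor of the lineage and one of its 2 most abundant members here, did not separate, at 39.1, 25.9 and 60.8 CPM in resistant nodules and 75.9, 49.97 and 35.4 CPM in combination nodules. The summed level of the list was 103, 42.2 and 184 CPM in resistant nodules and 444, 239 and 478 CPM in combination nodules. In bulk nodules, fewer cells of a type and less RNA per cell cannot be told apart.

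Interferon-stimulated genes were lower in resistant nodules in 23 of 24 cases by the sign of the fold change. For 11 of the 24 all 3 resistant nodules lay below all 3 combination nodules, among them Irf1, Irf7, Irf9, Isg15, Ifit1, Ifit3, Rsad2, Gbp2, Cxcl10 and Bst2. The median log2 fold change was -0.70, beside 0.06 over all autosomal genes, and 7 members had an unadjusted p under 0.05. Beside these stand 54.4% of all autosomal genes with a fold change above 0 and 6.59% lower in every resistant nodule. Of all, 3.01% were lower at an unadjusted p under 0.05 in edgeR, as these 7 members were. The separated count depended on the scaling, with 8 under upper-quartile factors (6.88% of all autosomal genes) and 7 under RLE factors (5.46%). Interferons induce these genes through a complex of transcription factors with IRF9, which binds an element of paired GAAA repeats.

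Ifit1, which binds foreign RNA ends (chr19:34640871-34650009, plus strand), had 5.86, 6.18 and 2.68 CPM in resistant nodules and 33.1, 37.5 and 17.3 CPM in combination nodules, a log2 fold change of -2.57 ± 0.62. Ifit3, its neighbour and binding partner (chr19:34583531-34588731, plus strand), had 7.93, 9.84 and 3.45 CPM in resistant nodules and 27.4, 27.8 and 40.3 CPM in combination nodules, a log2 fold change of -2.17 ± 0.64. Reads of Ifit3 may be split with the near-identical Ifit3b. Irf7, the factor that amplifies interferon production, had 22.5, 11.1 and 30.8 CPM in resistant nodules and 105, 75.9 and 63.4 CPM in combination nodules. These 3 genes had the most negative fold changes of the list. The most abundant members were Irf1, at 64.3, 44.2 and 55.9 CPM in resistant nodules and 92.1, 87.1 and 64.4 CPM in combination nodules, and Bst2, which tethers budding viruses, at 64.5, 29.4 and 41.0 CPM in resistant nodules and 73.9, 91.0 and 92.9 CPM in combination nodules. For Irf1 the highest resistant and the lowest combination nodule were almost equal.

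The 250 bases before the starts of Ifit1 (chr19:34640639-34640888, plus strand) and Ifit3 (chr19:34583279-34583528, plus strand) are shown because each holds the interferon-stimulated response element GAAANNGAAA at 2 places, here on the opposite strand and in capitals (RefSeq, GRCm38.p6).
Ifit1: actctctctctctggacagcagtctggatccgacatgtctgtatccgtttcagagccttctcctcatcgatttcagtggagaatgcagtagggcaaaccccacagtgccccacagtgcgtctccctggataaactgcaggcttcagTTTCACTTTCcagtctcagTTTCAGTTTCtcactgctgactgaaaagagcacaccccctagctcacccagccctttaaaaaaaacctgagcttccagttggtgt
Ifit3: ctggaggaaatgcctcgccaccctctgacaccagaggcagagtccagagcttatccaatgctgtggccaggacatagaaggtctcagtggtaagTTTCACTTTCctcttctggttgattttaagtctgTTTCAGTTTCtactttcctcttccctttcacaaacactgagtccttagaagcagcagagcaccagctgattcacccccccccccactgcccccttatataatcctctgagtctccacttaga
The element was found in 11 of the 20 interferon genes with a promoter entry, or 55%, and in 3.47% of all 25748 autosomal genes with one.

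Of 12 genes of antigen presentation by MHC class I, which interferon also induces, 8 had fold changes below 0 and 4 above. In every resistant nodule 4 were lower (H2-K1, Tap1, Tapbp and Psmb10), beside 6.59% of all autosomal genes, and the median log2 fold change was -0.38. H2-K1, a class I heavy chain, had 1084, 589 and 1392 CPM in resistant nodules and 2362, 1773 and 1456 CPM in combination nodules. H2-D1, the other classical chain and the most abundant member, had 2967, 1837 and 2414 CPM in resistant nodules and 3636, 1893 and 2780 CPM in combination nodules, which overlap. Tapbp, the chaperone tapasin that loads class I with peptide, had 227, 135 and 225 CPM in resistant nodules and 359, 328 and 321 CPM in combination nodules, a log2 fold change of -0.78 ± 0.29. Cd274, which encodes the checkpoint ligand PD-L1, had 7.86, 18.9 and 5.20 CPM in resistant nodules and 10.7, 10.002 and 14.04 CPM in combination nodules. Cd8a, of cytotoxic T cells, had 2.001, 0.747 and 0.0515 CPM in resistant nodules and 1.18, 1.77 and 1.51 CPM in combination nodules. Both overlapped between the groups.

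Among genes of T-DM1 handling, 16 of 18 lysosomal genes had fold changes below 0. The 9 that were lower in every resistant nodule, beside 6.59% of all autosomal genes, included Ctsd, Ctsl, Ctsz, Hexa, Gaa, Atp6v0d1, Atp6v1h and Mcoln1. The list had a median log2 fold change of -0.41. At an unadjusted p under 0.05 in edgeR, 3 members were lower, beside 3.01% of all autosomal genes. The separated count was 7 under RLE factors, where 5.46% of all autosomal genes were lower. Ctsd, the aspartic protease cathepsin D, had 823, 584 and 1197 CPM in resistant nodules and 1845, 1720 and 1737 CPM in combination nodules. Ctsb, cathepsin B, had 1187, 756 and 877 CPM in resistant nodules and 1715, 1220 and 1170 CPM in combination nodules. Ctsl, cathepsin L, had 404, 189 and 182 CPM in resistant nodules and 654, 522 and 519 CPM in combination nodules. Ctsd and Ctsl did not overlap between the groups and Ctsb did, by resistant nodule 1. Shared exon bases are 34.4% for Ctsd, 12.8% for Ctsb and 26.8% for Ctsl. The summed level of the 18 genes was 4719, 4370 and 4903 CPM in resistant nodules and 7569, 6531 and 6575 CPM in combination nodules.

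Slc46a3, which carries maytansine-based catabolites out of the lysosome, had 22.6, 19.6 and 28.2 CPM in resistant nodules and 37.3, 52.9 and 20.0 CPM in combination nodules. Combination nodule 3 lay among the resistant ones, and the log2 fold change was -0.65 ± 0.29. Among tubulin isotypes, the target of the poison, 3 of 14 were lower in every resistant nodule (Tubb2a, Tubb4b and Tubb5), beside 6.59% of all autosomal genes, and the median log2 fold change was -0.35. Without resistant nodule 3 the count was 7, where 20.1% of all autosomal genes were lower. It was 5 without resistant nodule 1 (12.6% of all) and 5 without resistant nodule 2 (11.3%), and without combination nodule 3 the median was -0.18. Tubb5, the broadly expressed beta tubulin, had 298, 228 and 287 CPM in resistant nodules and 384, 365 and 446 CPM in combination nodules. Tubb4b, abundant in cilia, had 363, 216 and 373 CPM in resistant nodules and 538, 588 and 479 CPM in combination nodules. Tubb3, the neuronal isotype studied in taxane resistance, had 1.67, 0.374 and 1.44 CPM in resistant nodules and 1.42, 0.473 and 1.03 CPM in combination nodules, which overlap.

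Of 11 ABC transporters, Abca1 was the sole member to separate, beside 6.59% of all autosomal genes lower, and the median log2 fold change was 0.22. Abcb1a and Abcb1b encode P-glycoprotein, the multidrug efflux pump. Abcb1a had 15.5, 25.4 and 10.9 CPM in resistant nodules and 15.7, 15.3 and 13.4 CPM in combination nodules. Abcb1b had 7.78, 5.81 and 2.88 CPM in resistant nodules and 4.47, 3.86 and 9.65 CPM in combination nodules. The resistant nodules spanned the combination range for Abcb1a, and the groups overlapped for Abcb1b. Abca3, which loads surfactant lipid into lamellar bodies, had 279, 681 and 877 CPM in resistant nodules and 391, 297 and 319 CPM in combination nodules. Abcc3, an exporter of conjugates, had 87.7, 70.8 and 440 CPM in resistant nodules and 173, 145 and 131 CPM in combination nodules. Abcc4, an exporter of cyclic nucleotides, was high in resistant nodule 3 alone, at 310 CPM against 28.4 and 59.8 CPM in the other resistant nodules and 57.0, 29.8 and 48.2 CPM in combination nodules.

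The drug target and its relatives overlapped between the groups. Erbb2 had 288, 689 and 1096 CPM in resistant nodules and 651, 446 and 306 CPM in combination nodules, a log2 fold change of 0.56 ± 0.41. The labels do not say whether transcripts of the insertion allele were counted under Erbb2. Erbb3, the partner without an active kinase, had 128, 149 and 446 CPM in resistant nodules and 265, 190 and 299 CPM in combination nodules. Egfr had 27.1, 23.1 and 8.49 CPM in resistant nodules and 28.3, 15.1 and 31.9 CPM in combination nodules. Nrg1, a ligand of HER3, had 7.46, 3.45 and 16.4 CPM in resistant nodules and 16.3, 15.4 and 13.0 CPM in combination nodules. Resistant nodule 3 was the highest of its group for Erbb2, Erbb3 and Nrg1 and the lowest for Egfr. Errfi1, an inhibitor of EGFR and HER2 kinases that the receptors induce, was the 1 of 15 ERBB genes to separate, with 168, 313 and 198 CPM in resistant nodules and 73.2, 63.9 and 128 CPM in combination nodules. Its log2 fold change was 1.36 ± 0.42, and the median of the list was -0.04. Over all autosomal genes 5.98% were higher in every resistant nodule.

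Feedback and target genes of ERK tended above 0 in resistant nodules, with 15 of 20 fold changes positive, beside 54.4% of all autosomal genes, and a median log2 fold change of 0.51. Of the 20, 1 separated the groups, beside 5.98% of all autosomal genes higher in every resistant nodule. Spry4, a feedback inhibitor of receptor signalling to ERK, had 9.97, 14.3 and 13.4 CPM in resistant nodules and 6.70, 5.55 and 6.85 CPM in combination nodules, a log2 fold change of 0.98. Dusp6, the phosphatase that switches ERK off, had 43.4, 85.4 and 68.5 CPM in resistant nodules and 54.6, 48.2 and 41.6 CPM in combination nodules. Resistant nodule 1 was the low one: without it, 7 of the 20 were higher in every resistant nodule left, where 13.2% of all autosomal genes were.

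The ETS factors Etv4 and Etv5, transcribed under ERK, differed by nodule. Etv4 had 1.31, 8.80 and 12.5 CPM in resistant nodules and 4.99, 2.17 and 4.68 CPM in combination nodules, and Etv5 had 14.9, 69.9 and 14.8 CPM in resistant nodules and 23.5, 17.6 and 25.9 CPM in combination nodules. Resistant nodule 2 was far above every other nodule for Etv5, and resistant nodule 1 was lowest for Etv4. Ccnd1, the cyclin of G1 entry, had 187, 325 and 704 CPM in resistant nodules and 410, 217 and 413 CPM in combination nodules, with 23.4% of its exon bases shared. Myc, a growth transcription factor, had 13.2, 16.6 and 42.4 CPM in resistant nodules and 26.6, 16.1 and 20.4 CPM in combination nodules. Epha2, an ephrin receptor, had 71.8, 56.3 and 262 CPM in resistant nodules and 175, 152 and 98.7 CPM in combination nodules. For these 3 genes resistant nodule 3 was the highest of all 6 nodules and resistant nodule 1 or 2 the lowest. Egr1, an immediate early gene, had 27.8, 17.8 and 21.5 CPM in resistant nodules and 58.9, 84.3 and 27.6 CPM in combination nodules, which overlap.

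**Figure D3:**
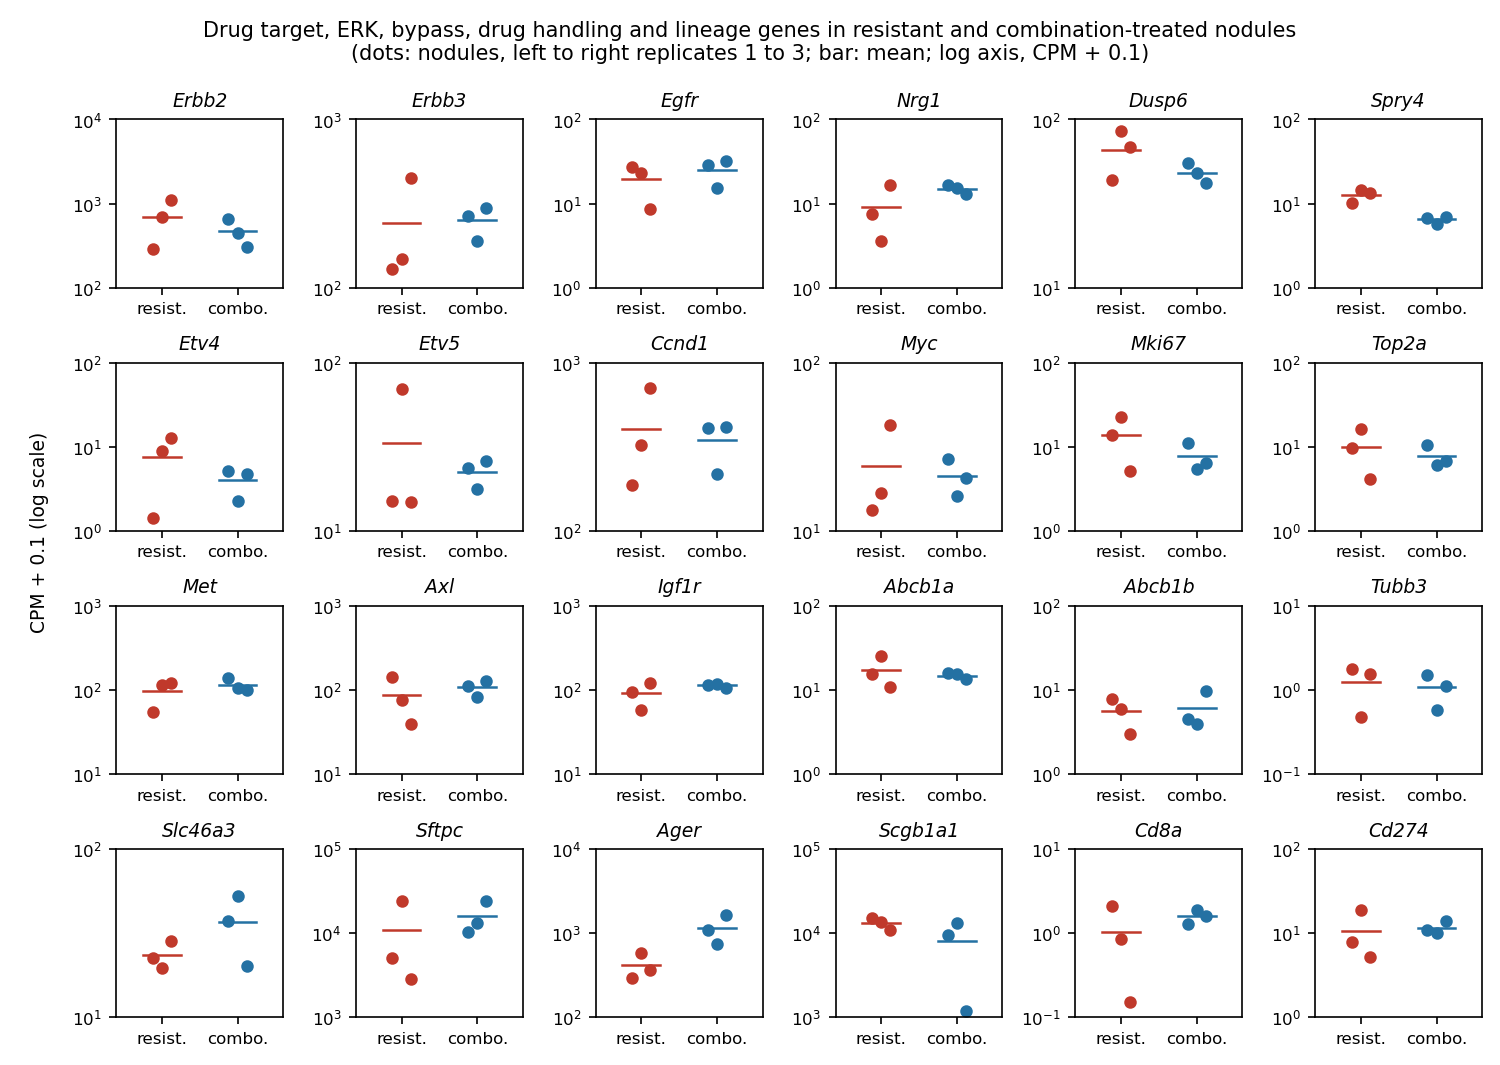
CPM + 0.1 on a log axis of 24 genes of the drug target, ERK output, bypass receptors, drug handling, lineage and immune cells; each dot is a nodule, resistant left and combination right, and the bar is the mean of 3. The groups overlap for 22 of the 24, and Spry4 (higher) and Ager (lower) are the 2 that do not, beside 12.6% of all autosomal genes.

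Receptors that can bypass HER2 gave 1 separated gene in each direction out of 20, with a median log2 fold change of 0.27. Over all autosomal genes 5.98% were higher and 6.59% lower in every resistant nodule. Ret, a receptor of the GDNF family, had 13.3, 10.3 and 6.95 CPM in resistant nodules and 5.28, 4.10 and 4.35 CPM in combination nodules, a log2 fold change of 1.16 ± 0.52. Met, the HGF receptor, had 55.1, 116 and 122 CPM in resistant nodules and 141, 107 and 99.9 CPM in combination nodules. Axl, the GAS6 receptor, had 143, 76.2 and 39.6 CPM in resistant nodules and 111, 83.0 and 129 CPM in combination nodules, and its ligand Gas6 had 418, 195 and 117 CPM in resistant nodules and 176, 224 and 245 CPM in combination nodules. Igf1r, the receptor of insulin-like growth factors, had 95.6, 58.0 and 121 CPM in resistant nodules and 115, 119 and 107 CPM in combination nodules. Ddr1, a collagen receptor, had 112, 48.3 and 323 CPM in resistant nodules and 260, 216 and 191 CPM in combination nodules. The groups overlapped for Met, Axl, Gas6, Igf1r and Ddr1. Without resistant nodule 3, 9 of the 20 were higher in every resistant nodule left, where 18.6% of all autosomal genes were.

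Of 15 FOXO factors and genes restrained by PI3K, 13 had fold changes above 0, beside 54.4% of all autosomal genes. In every resistant nodule 4 were higher (Foxo1, Foxo3, Pdk4 and Cited2), beside 5.98% of all, and 1, Pik3ip1, was lower, beside 6.59%. The median log2 fold change was 0.31, and without combination nodule 3 the higher ones numbered 7, where 9.17% of all autosomal genes were higher. Pdk4, which shuts pyruvate out of the mitochondrion, had 127, 67.2 and 62.9 CPM in resistant nodules and 23.5, 25.8 and 33.9 CPM in combination nodules, a log2 fold change of 1.63 ± 0.45. Pik3ip1, an inhibitor of PI3K, had 30.6, 14.3 and 17.1 CPM in resistant nodules and 45.5, 48.0 and 47.5 CPM in combination nodules, a log2 fold change of -1.18 ± 0.32. Both had gaps wider than the range of the combination nodules. Foxo3, a factor of the family, had 181, 179 and 256 CPM in resistant nodules and 177, 111 and 144 CPM in combination nodules. Txnip, a brake on glucose uptake, had 1202, 1086 and 1452 CPM in resistant nodules and 759, 605 and 1245 CPM in combination nodules; 19.4% of its exon bases are shared.

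Mitotic genes did not separate the groups: 0 of 20 had no overlap, beside 12.6% of all autosomal genes. An unadjusted p under 0.05 in edgeR was reached by 0 of the 20, beside 8.21% of all. Fold changes were above 0 for 16 of the 20, beside 54.4% of all, with a median log2 fold change of 0.22. DESeq2 and limma-voom called no member after adjustment. Mki67, the proliferation marker Ki-67, had 13.8, 22.3 and 5.04 CPM in resistant nodules and 11.1, 5.32 and 6.34 CPM in combination nodules. Top2a, a topoisomerase of dividing cells, had 9.53, 16.3 and 4.01 CPM in resistant nodules and 10.4, 5.95 and 6.71 CPM in combination nodules. For both genes resistant nodule 2 was the highest and resistant nodule 3 the lowest of the 6, and without resistant nodule 2 the median of the list was -0.15. It was 0.49 without resistant nodule 3, where 6 of 20 were higher in every nodule left beside 18.6% of all autosomal genes, and 0.57 without combination nodule 1. Of 20 genes of DNA replication and G1/S, 2 were lower in every resistant nodule, beside 6.59% of all autosomal genes. The median log2 fold change of that list was -0.13.

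Of the lung lineage markers named here, 4 separated the groups and the others overlapped. Sftpc, the surfactant protein of alveolar type 2 cells, had 5098, 24476 and 2871 CPM in resistant nodules and 10467, 13328 and 23922 CPM in combination nodules. Sftpb had 2398, 7182 and 9413 CPM in resistant nodules and 6349, 3993 and 4705 CPM in combination nodules. Scgb1a1, the secretory protein of club cells, had 15129, 13770 and 10811 CPM in resistant nodules and 9577, 13292 and 1189 CPM in combination nodules. Bpifa1, a secreted airway protein and the other most abundant gene of the club cell list, was lower in every resistant nodule, with 5549, 514 and 2096 CPM in resistant nodules and 15733, 15684 and 6917 CPM in combination nodules, a log2 fold change of -2.23 ± 1.08. It was the 1 of 11 club cell genes to separate, beside 6.59% of all autosomal genes lower, and the median of that list was 0.24. Ager, of alveolar type 1 cells, also separated, with 298, 577 and 369 CPM in resistant nodules and 1087, 741 and 1667 CPM in combination nodules, a log2 fold change of -1.49. Of 12 alveolar type 1 genes, 2 were lower in every resistant nodule, beside the same 6.59%. The median of the type 1 list was -0.19, with 5 of the 12 fold changes above 0. Its most abundant member overlapped between the groups. Epcam, an epithelial adhesion protein, had 170, 266 and 310 CPM in resistant nodules and 435, 322 and 339 CPM in combination nodules. Krt19, a keratin of simple epithelium, had 430, 132 and 672 CPM in resistant nodules and 1278, 930 and 1063 CPM in combination nodules. Epcam and Krt19 were the 2 of 17 tumor and type 2 genes to separate, both lower, beside the same 6.59%. The median of that list was 0.34, or -0.57 without resistant nodule 2.

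Smooth muscle genes were higher in resistant nodules, mainly by 1 nodule. Of 13 tested, 6 were higher in every resistant nodule (Acta2, Myh11, Tagln, Cnn1, Lmod1 and Smtn), and 9 were higher at an unadjusted p under 0.05. Over all autosomal genes these shares were 5.98% and 5.19%. The median log2 fold change was 1.92. Without resistant nodule 1 the median was 0.51. Myh11, smooth muscle myosin, had 451, 78.8 and 51.2 CPM in resistant nodules and 26.3, 31.1 and 17.7 CPM in combination nodules, a log2 fold change of 2.95 ± 0.79. Acta2, smooth muscle actin, had 449, 67.9 and 85.9 CPM in resistant nodules and 42.3, 60.1 and 23.5 CPM in combination nodules. Tagln, an actin-binding protein of the same cells, had 420, 78.7 and 76.2 CPM in resistant nodules and 38.9, 74.8 and 33.4 CPM in combination nodules, with 67.9% of its exon bases shared. The summed level of the list was 2274, 578 and 513 CPM in resistant nodules and 328, 480 and 360 CPM in combination nodules.

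Other marker lists were high in 1 or 2 resistant nodules. Dcn, a matrix proteoglycan of fibroblasts, had 340, 90.8 and 25.3 CPM in resistant nodules, against 47.3, 28.3 and 30.2 CPM in combination nodules. Ighm, the IgM heavy chain, had 14175, 480 and 45.9 CPM in resistant nodules, against 614, 92.2 and 83.5 CPM in combination nodules. Resistant nodule 1 was highest for both. Cardiac muscle genes, summed over 12 members, had 54.0, 477 and 532 CPM in resistant nodules, against 60.2, 7.25 and 12.2 CPM in combination nodules. All 12 had a fold change above 0, beside 54.4% of all autosomal genes, with a median log2 of 3.63. Of the 12, 1, Actc1 (cardiac actin), separated the groups, beside 5.98% of all autosomal genes higher in every resistant nodule. Ciliated cell genes, summed over 12 members, had 520, 216 and 89.96 CPM in resistant nodules, against 131, 142 and 35.3 CPM in combination nodules. Their median log2 fold change was 1.72, and 1 gene, Tmem212, separated as higher, beside the same 5.98%. Neutrophil genes had a median of -1.26 with 1 of 12 separated, and mesothelial genes a median of -1.36 with 3 of 10 separated, beside 6.59% of all autosomal genes lower. The summed level of the neutrophil list did not follow its median. It was 9182, 26210 and 83325 CPM in resistant nodules, against 32542, 41489 and 30709 CPM in combination nodules. The part that differing cell content has in the lists above was not tested.

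**Figure D4:**
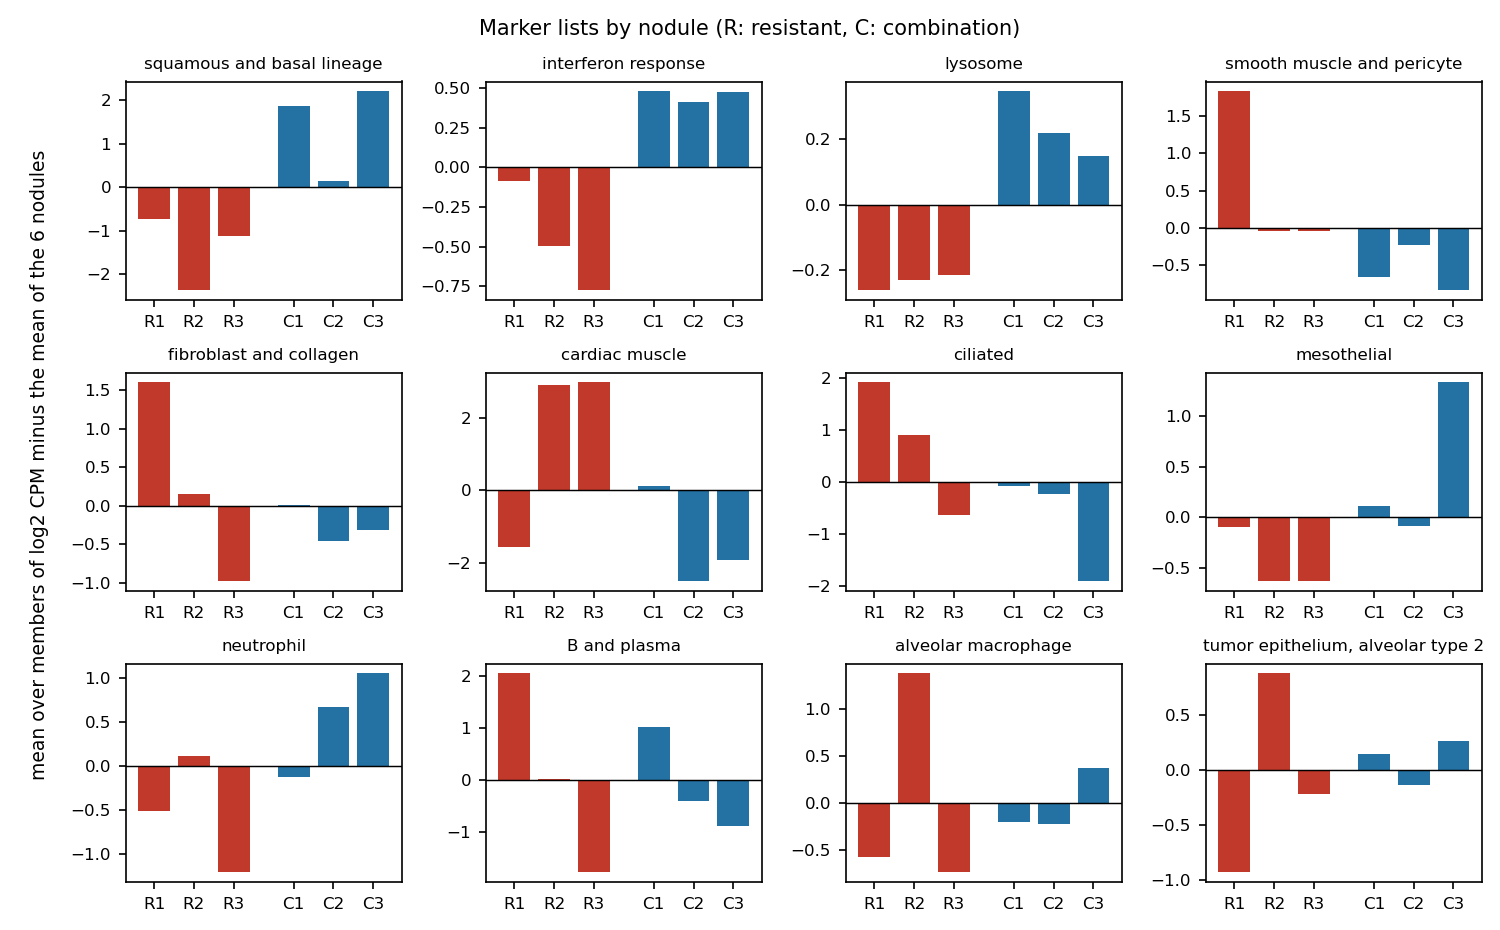
Mean over list members of log2 CPM minus the mean of the 6 nodules, for 12 gene lists, in resistant nodules (R1 to R3, left) and combination nodules (C1 to C3, right). Squamous, interferon and lysosomal lists are below 0 in all 3 resistant nodules and above 0 in all 3 combination nodules; smooth muscle, fibroblast and B cell lists peak in resistant nodule 1, and cardiac muscle in resistant nodules 2 and 3.

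Genes that set 1 nodule apart were counted by a rule chosen after values were seen, a level of at least 10 CPM and at least 4 times the highest of the other 5 nodules among 13681 genes. Resistant nodules had 70, 33 and 18 such genes, against 5, 3 and 8 in combination nodules. In resistant nodule 2, Ros1, an orphan receptor kinase of the lung, had 46.1 CPM and at most 1.18 CPM in the other 5 nodules. The type 2 cell genes Cxcl15 and Lamp3 had 6426 and 1765 CPM in resistant nodule 2 and at most 694 and 219 CPM in the other 5 nodules. In resistant nodule 3, Hnf4a, a factor of the gut and liver lineage, had 16.6 CPM and at most 0.913 CPM in the other 5 nodules. With the mobocertinib, T-DM1 and vehicle libraries included, the highest level outside the nodule was 26.5 CPM for Ros1 and 13234 CPM for Cxcl15. It was 1018 CPM for Lamp3 and 1.18 CPM for Hnf4a. High levels of Ros1, Cxcl15 and Lamp3 were thus not particular to resistant nodule 2 in the series.

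**Figure D5:**
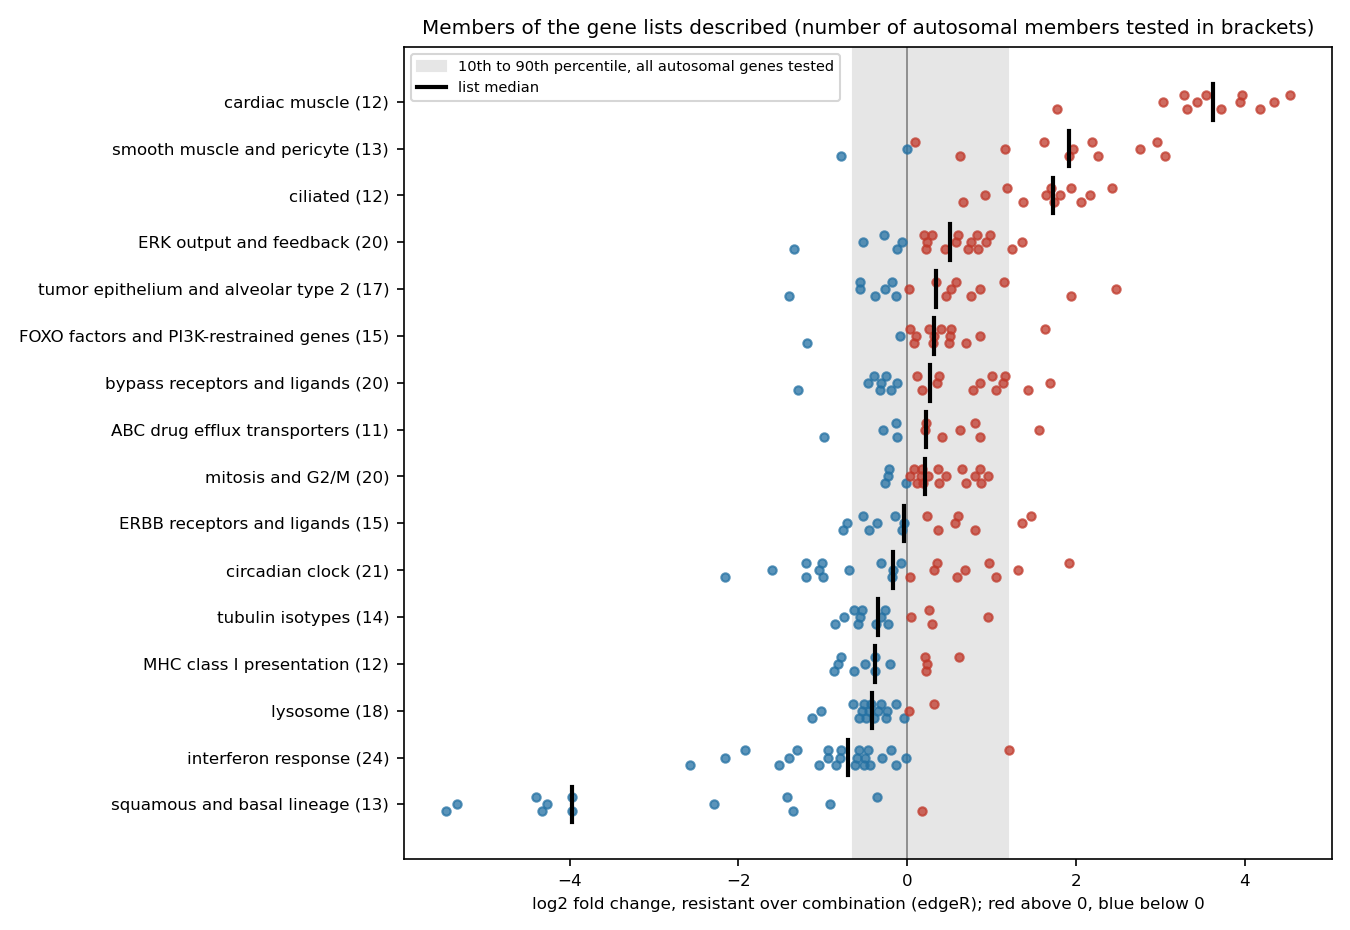
Log2 fold change, resistant over combination (edgeR), of each tested autosomal member of 16 gene lists, with the list median as a bar and the 10th to 90th percentile of all autosomal genes tested, -0.64 to 1.19, in grey. Squamous genes reach lowest (median -3.97) and cardiac muscle genes highest (median 3.63). Medians of the ERBB, bypass, ABC transporter and mitosis lists are -0.04, 0.27, 0.22 and 0.22, and bypass members run from -1.29 to 1.69.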

How the data were processed

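Total RNA was sequenced from frozen lung tumor nodules. The deposited count table holds whole-number counts per gene, and the deposited TPM table holds length-normalized values, both made by the authors. The submitters' processing notes name STAR, RSEM and mm10, with no version, role, annotation or strand setting. Genes were placed by symbol with GENCODE M21 (mm10; 53180 symbols with 1 gene). Counts were tested with edgeR 4.0.16 in R 4.3.3: filterByExpr, TMM factors, robust glmQLFit over 14 libraries in 5 groups (9 residual degrees of freedom), the contrast resistant minus combination, and Benjamini-Hochberg adjustment over all 17933 genes; the SE is the log2 fold change over the root of F. The script was tested on simulated data. Libraries of the 6 nodules held 19344015 to 24043238 counts, and a share of counts had a 95% Wilson interval at most 0.0316 percentage points wide, for counting error only. No library pair within a group agreed within sampling noise.

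Rule (a) for naming genes took the 10 of each direction with the smallest unadjusted p in edgeR, since no gene was called. These were protein-coding genes whose mean log2 CPM reached 1 and whose groups did not overlap. Rule (b) took the 2 most abundant members of each list described gene by gene, and rule (c) a panel of 24 genes. Lists given more briefly, such as replication, oxidative phosphorylation, p53, fibroblast, cardiac muscle, ciliated, neutrophil and mesothelial, were not shown by rule (b). Others (such as Arntl, Myh11, Pdk4, Irf7, Ret, Actc1, Tmem212, Dcn, Atf3, H2-Eb1 and Gm15459) and the clock list were chosen after their values were seen. A few genes that these rules name are counted but not reported by name here. Members and lists were chosen with earlier results of these data known. Alternatives were other factors and filters, limma 3.58.1, DESeq2 1.42.0, the TPM table with pseudocounts of 1 and 0.1, fewer libraries, a term for sex and leaving out each library. Promoters are RefSeq entries on GRCm38.p6, cropped to the 250 bases before the start; 18 clock and 20 interferon genes matched by symbol. Figures were drawn with matplotlib 3.10.9.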

Additional observations from a re-analysis of the deposited data

Results flagged for a closer look

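A signal outside the autosomal genes set the groups apart. Xist had 217 CPM of the library total in resistant nodule 1, 523 CPM in resistant nodule 2 and 63.8 CPM in resistant nodule 3, against at most 0.541 CPM in the 3 combination nodules. The 4 Y-linked genes Ddx3y, Eif2s3y, Kdm5d and Uty summed to at most 0.850 CPM in the 3 resistant nodules, against 77.3 CPM in combination nodule 1, 80.9 CPM in combination nodule 2 and 79.9 CPM in combination nodule 3. Ddx3y was the 1 gene of the whole table with an adjusted p under 0.05 in edgeR, 0.0235, at a log2 fold change of -7.34. The labels do not give the sex of the mice. Sex and group cannot be told apart in these 6 libraries.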

How the results depend on the processing

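Of 21 ways to run the comparison, the edgeR test as described and all but 2 others called 0 autosomal genes. DESeq2 called 47, and edgeR on the 6 compared libraries alone called 1. The count at an unadjusted p under 0.05, 1394 as described, was 658 in a test against a 1.5-fold change, 331 with a term for sex and 902 with limma-trend on log2(TPM + 0.1), and ran from 714 to 2972 when 1 library was left out. The term for sex rests on the T-DM1 libraries, 2 of which had more Xist than Y-linked counts. Both held a mixed signal, in CPM of the library total. T-DM1 library 1 had 44.1 CPM of Xist and 6.99 CPM of the 4 Y-linked genes. T-DM1 library 2 had 21.3 CPM of Xist and 18.0 CPM of the 4 Y-linked genes. Counts and signs under this term are therefore not a clean adjustment for sex. Of the genes at an unadjusted p under 0.05, 63.3% were higher in resistant nodules as described, 70.6% with RLE factors, 71.4% with DESeq2, 51.7% with limma-voom, 52.0% with limma-trend on log2(TPM + 1) and 43.5% on log2(TPM + 0.1). The log2 fold changes of named genes reversed in 65 gene and setting pairs, none of them at an adjusted p under 0.05, and in 2011 kept both their direction and their side of that threshold. With a term for sex, the other sign was given by Epha2 at 0.55, Erbb3 at 0.046, Ddr1 at 0.0078, Top2a at -0.23, H2-D1 at 0.068, Sox2 at 0.23, Sftpb at -0.40, Nrg1 at 0.11, Etv5 at -0.60, Igf1r at 0.57, Abcb1b at 0.15, H2-Aa at -0.60, Ighm at -0.94, Dcn at -0.047, Nkx2-1 at -0.24. With limma-trend on log2(TPM + 1), the other sign was given by Erbb2 at -0.0073, Top2a at -0.15, Abcc3 at -0.17, H2-Aa at -0.047. With limma-trend on log2(TPM + 0.1), the other sign was given by Erbb2 at -0.0090, Top2a at -0.21, Abcc3 at -0.18, H2-Aa at -0.048. With limma-voom, the other sign was given by Gas6 at -0.019, Abcc3 at -0.075, Myc at -0.014, Nkx2-1 at -0.0076. With no filter, the other sign was given by Nkx2-1 at -0.018. With the 6 libraries alone, the other sign was given by Nkx2-1 at -0.0017. Leaving out 1 library at a time, the log2 fold change crossed 0 for Abcb1a (-0.16 to 0.47), Abcb1b (-0.50 to 0.42), Abcc3 (-0.92 to 0.82), Abcc4 (-0.030 to 2.05), Axl (-0.92 to 0.026), Ccnd1 (-0.44 to 0.57), Cd274 (-0.82 to 0.21), Cxcl15 (-0.56 to 3.02), Egfr (-0.70 to 9.03e-05), Epha2 (-1.15 to 0.23), Erbb3 (-0.86 to 0.24), Etv5 (-0.59 to 0.93), Gas6 (-0.49 to 0.51), H2-Aa (-0.036 to 0.81), H2-D1 (-0.41 to 0.043), Ighm (-0.019 to 5.80), Lamp3 (-1.51 to 2.48), Met (-0.44 to 0.023), Myc (-0.49 to 0.49), Nkx2-1 (-0.16 to 0.22), Ros1 (-1.57 to 4.52), Sftpb (-0.066 to 0.72), Top2a (-0.18 to 0.75), Tubb3 (-0.10 to 0.68). The cause of these changes was not tested. In DESeq2, 21 named genes passed an adjusted p of 0.05 that did not in edgeR, and in the 6 libraries alone Gm15459 did. No paired analysis was possible because the labels give no replicate numbers shared between the groups. With 3 nodules in each group and a biological coefficient of variation of 0.483, low genes such as Krt13 and Ciart rest on few counts, and a miss of the threshold does not show that values were alike.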

Other observations

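Some gene groups depended on single nodules. Oxidative phosphorylation genes had fold changes above 0 in 3 of 20 cases, beside 54.4% of all autosomal genes, with a median log2 of -0.32. With all nodules 0 of 20 separated the groups or had an unadjusted p under 0.05 in edgeR, beside 12.6% and 8.21% of all autosomal genes. Without resistant nodule 3, 9 of the 20 were lower in every resistant nodule left, where 20.1% of all autosomal genes were, and without combination nodule 1, 8 of the 20, where 11.9% were. Among p53 targets, 3 of 17 were lower in every resistant nodule, beside 6.59% of all autosomal genes, with a median of -0.17. Without resistant nodule 3, 12 of the 17 were lower, beside 20.1% of all, and the median was -0.53; without resistant nodule 1 the median was 0.021. Atf3, a stress-induced transcription factor outside the p53 list, had 6.11, 5.02 and 5.10 CPM in resistant nodules and 22.2, 13.4 and 14.8 CPM in combination nodules, a log2 fold change of -1.63 ± 0.43. It was the lowest of 17 genes of the ATF4 and unfolded protein response. Of these, 1 was lower and 1 higher in every resistant nodule, beside 6.59% and 5.98% of all autosomal genes. The median of that list was 0.34, with 10 of 17 fold changes above 0.

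A pair of MHC class II genes parted, in a list that otherwise overlapped between the groups. Of 12 class II presentation genes, 1 was lower in every resistant nodule, beside 6.59% of all autosomal genes. The median log2 fold change of the list was -0.07, with 5 of the 12 above 0. That gene, H2-Eb1, a class II beta chain gene, had 13.1, 9.26 and 71.0 CPM in resistant nodules and 191, 334 and 212 CPM in combination nodules, a log2 fold change of -2.98 ± 1.22. H2-Aa, the alpha chain of I-A from the same cells, had 991, 857 and 197 CPM in resistant nodules and 552, 408 and 618 CPM in combination nodules. H2-Eb1 was also low in 1 of the mobocertinib libraries, at 7.39 CPM, and 343 CPM in another.

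The processed pseudogene Gm15459, the 1 gene called with the 6 libraries alone, stood at 2 levels over the series. It had 8.51, 9.30 and 9.32 CPM in resistant nodules and 231, 190 and 106 CPM in combination nodules. Of the mobocertinib libraries 2 were low, at 9.67 and 8.32 CPM, and 1 was at 190 CPM; of the T-DM1 libraries 1 was low, at 11.2 CPM, and 2 were at 208 and 109 CPM; the vehicle libraries had 369 and 79.9 CPM. Of its exon bases 95.8% are shared with another annotated gene. The cause was not tested.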
